A study of Mus musculus with 27 samples.

Results

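The genes that encode the proteins of the cytosolic ribosome were followed in liver RNA-Seq of 27 male mice. They were taken by symbol: every symbol that begins with Rpl or Rps and a number, together with *Rplp0*, *Rplp1*, *Rplp2* and *Rpsa*, without pseudogenes named as such, without the S6 kinases and without *Rps19bp1*. Of 87 such symbols, 84 had at least 10 counts in at least 6 libraries, out of 23191 gene symbols in the table. The 84 comprise 34 genes of the small subunit and 50 of the large subunit, 3 of them genes of the stalk. Of the 84, 77 are canonical genes and 7 are paralogs or retrocopies (*Rps4l*, *Rps27l*, *Rps27rt*, *Rpl7l1*, *Rpl22l1*, *Rpl32l* and *Rpl36al*). *Fau* and *Rack1*, whose symbols the rule does not take, are given beside the members below. The 3 symbols left out for low counts were *Rpl3l*, *Rpl10l* and *Rpl39l*, whose highest counts in any library were 8, 0 and 4. The table also lists pseudogenes of this family as rows of their own, and reads shared between a gene and a near-identical copy were placed by the authors' counting. The levels of *Rps4l*, *Rpl32l*, *Rps27rt* and *Rpl17* are uncertain for this reason, and those of other members may be. The annotation names 24 pseudogenes each after *Rps12* and *Rpl31*, 15 after *Rpl21* and 14 each after *Rpl23a* and *Rps19*, against 11 after *Rpl17*. The highest count of *Rpl17* in any library was 305, and that of the row *Rpl17-ps10* was 343. *Rpl34* and *Rpl37* each sum a second row at another locus, which held 16.4% and 11.8% of their counts.

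All mice were on the C57BL/6J background. The 14 controls were littermates, and the 13 HGFAC-KO mice carried in every tissue a CRISPR/Cas9 deletion that takes the whole of exon 2 and some of exon 1 of *Hgfac*, the gene of a protease that the liver secretes and that activates hepatocyte growth factor. On chow there were 7 controls and 6 HGFAC-KO mice, on the other diet 7 controls and 7 HGFAC-KO mice on a diet high in fat and sucrose (HF/HS, with 45% fat and 18% sucrose), all after 4 weeks on the diet. The study's longer feeding experiment took mice 8 weeks old at its start, and the age of the mice sequenced is not given in the sources used here. *Hgfac* stood at 201 ± 12.8 CPM (the count of a gene scaled to the total on named genes after TMM adjustment of that total, mean and SD, n = 7) in controls and 75.2 ± 8.27 CPM (n = 6) in HGFAC-KO mice on chow, and 271 ± 15.5 CPM (n = 7) against 91.8 ± 7.94 CPM (n = 7) on HF/HS, with no overlap on either diet. Total counts ran from 36056177 to 57298657 per library with a median of 47239271, and all 84 genes had counts in every library. In whole liver, fewer cells of a type and less RNA per cell cannot be told apart. The hepatocyte markers fixed for this work (11 of 12 in the table, among them *Alb*) summed to between 88660 and 128400 CPM in every mouse, and the 25 leukocyte and Kupffer cell markers to between 219.5 and 587 CPM.

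A ribosome joins a small subunit, which reads the mRNA, to a large subunit, which forms the peptide bond. Each subunit needs nearly all of its proteins in equal numbers, and cells are known to make ribosomal proteins in step and to degrade those left without a partner. Most ribosomal protein mRNAs begin with a cytosine and a run of pyrimidines, the 5′ terminal oligopyrimidine (TOP) tract, through which the kinase mTORC1 controls their translation by way of LARP1 and the 4E-BPs. Liver makes much of the protein of plasma, and its ribosome content is known to follow feeding and growth signals. RNA-Seq reads the level of these mRNAs and not how far they are translated.

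The TOP tract was looked for around the RefSeq start sites of GRCm38.p6, in windows of 300 bases with 250 before and 50 after the start. Of the 84 genes, 63 had a window, and 9 of these had more than 1, which gave 74 windows. A C at the first base of the transcript followed by at least 4 pyrimidines stood in 15 of 74 windows (20.3%), against 2.51% of the 32851 windows of all genes. With the run allowed to begin within 10 bases of the start, the shares were 54.1% and 30.7%. The 30 bases around the start, 5′ to 3′ on the strand of the gene, are printed for 6 genes that have a TOP start and for *Rps13* and *Rpl36al*, which have no such run within 10 bases of the annotated start, since the results below turn on *Rps6*, *Rps27*, *Rplp2*, *Rps13* and *Rpl36al*, and *Rps10*, *Rps18* and *Rpl35* have long runs. Capitals mark the unbroken pyrimidine run at the start, and the first transcribed base is the sixteenth in each line. The windows lie at chr4:86857353-86857382 (minus strand) for *Rps6*, chr3:90213634-90213663 (minus) for *Rps27*, chr17:27635230-27635259 (minus) for *Rps10*, chr17:33955651-33955680 (minus) for *Rps18*, chr2:39005117-39005146 (minus) for *Rpl35*, chr7:141447636-141447665 (plus) for *Rplp2*, chr7:116334176-116334205 (minus) for *Rps13* and chr12:69184053-69184082 (minus) for *Rpl36al*.
Rps6: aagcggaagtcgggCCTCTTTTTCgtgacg
Rps27: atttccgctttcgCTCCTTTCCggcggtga
Rps10: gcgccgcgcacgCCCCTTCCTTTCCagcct
Rps18: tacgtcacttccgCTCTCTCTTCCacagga
Rpl35: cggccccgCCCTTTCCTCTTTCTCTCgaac
Rplp2: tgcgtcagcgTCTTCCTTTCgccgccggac
Rps13: gagagcaaacgtcggtgagtggcgtcactt
Rpl36al: cattcccgtcgctcaggttcagttccgact

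In each of the 6 windows with a run at the start the run began before the annotated first base, so that the true first base may differ from the annotated one. Over the whole window and on both strands, GGGCGG, the letters of a GC box, stood in 60.8% of the members' windows and in 35.7% of all windows. CCGGAA, the core of sites of ETS-type factors such as GABP, stood in 48.6% and 14.9%, and ATGGCG, the core of YY1 sites, in 29.7% and 8.93%. TATAAA stood in 10.8% of the members' windows and in 13.6% of all. None of these words contains another, and a match describes letters, not binding.

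In liver the members spanned a wide range of levels. The mean over 27 mice ran from 2.98 CPM for *Rpl32l* to 469.5 CPM for *Rpl4*. Divided by the length of all exons of a gene together (GENCODE M21, GRCm38), the 77 canonical genes had a median of 58.6 CPM per kb, with 70.6 CPM per kb for the 31 of the small subunit and 52.9 CPM per kb for the 46 of the large subunit. *Rplp1*, which encodes an acidic protein of the stalk that recruits translation factors, was highest at 499 CPM per kb, followed by *Rpl36* at 350.2 CPM per kb and *Rps15* at 285.7 CPM per kb. The lowest were *Rpl17* at 4.19, *Rpl32l* at 7.46 and *Rps15a* at 8.29 CPM per kb. The order depends on which length is used. Divided by the length of the principal transcript instead, *Rps15a* stood at 81.2 CPM per kb, and *Rplp2* (361.7), *Rps15* (359.9) and *Rpl8* (358.5) came before *Rpl36* (350.2). *Rplp1* (499 CPM per kb) and *Rpl17* (7.17 CPM per kb) were the highest and the lowest on both scales among the 82 genes with such a transcript.

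**Figure D1:**
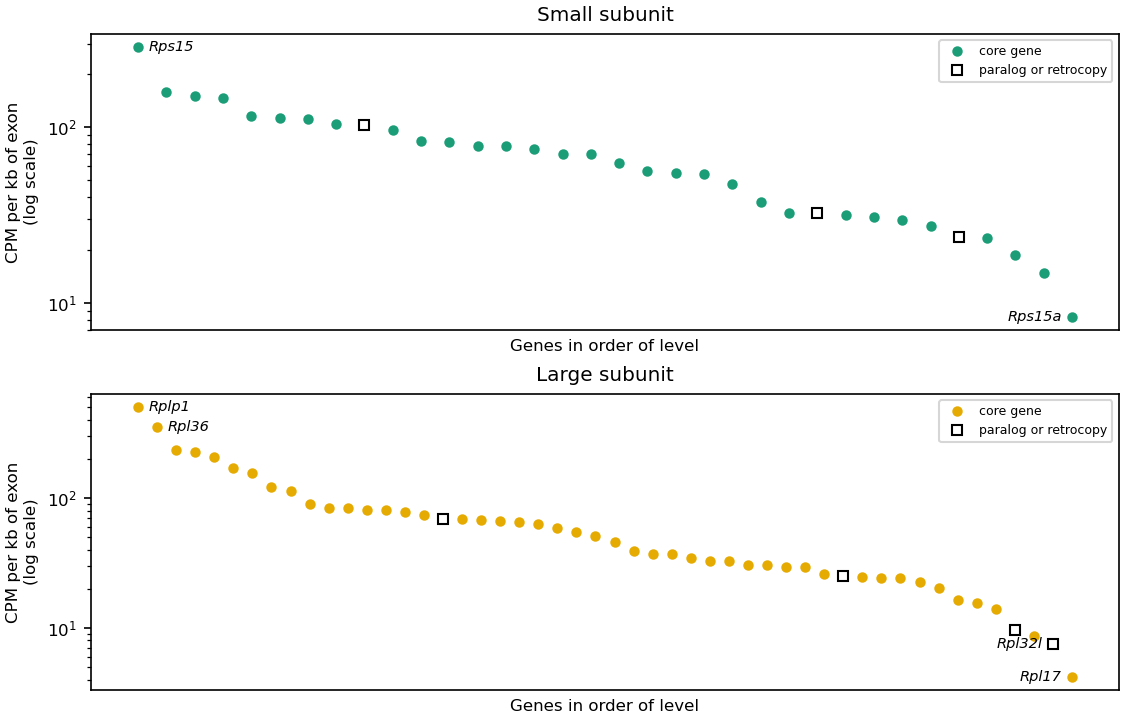
Level of the 84 ribosomal protein genes in liver, in CPM per kb of exon (mean over 27 mice, log axis), ordered by level within the small subunit (34 genes) and the large subunit (50 genes). Squares are paralogs and retrocopies, and the levels run from *Rplp1* at 499 CPM per kb down to *Rpl17* at 4.19 CPM per kb.

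For single mice, the level of the family is given as the mean over the 84 genes of log2 CPM relative to the mean of 27 mice. In controls on chow this level ran from -0.14 to 0.07 with a median of -0.06, and in HGFAC-KO mice on chow from -0.11 to 0.40 with a median of 0.07. On HF/HS it ran from -0.13 to 0.08 in controls (median -0.04) and from -0.16 to 0.12 in HGFAC-KO mice (median -0.04). The 4 groups overlapped, and 1 mouse was above all others. KO chow replicate 1 was at 0.40, the next mouse of any group at 0.13. In this mouse 76 of the 84 genes had their highest level of all 27 mice, and the members took 1.32% of the counts on named genes, against 0.894% to 1.04% in the other 26 mice. The same mouse had the lowest level of 27 in 2105 (15.1%) and the highest in 1992 of the 13932 genes expressed in liver, and genes outside the family whose principal transcript is under 1000 bases also had their highest mean level there (0.18, the other mice from -0.11 to 0.09). At the other end of its group, KO chow replicate 6 had the lowest level of the group in 77 of 84 genes and a family level of -0.11. In that mouse 12.1% of all counts fell on rows without a gene name, against 4.13% to 9.17% in the others. The part of these shares in the level of the family was not tested.

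**Figure D2:**
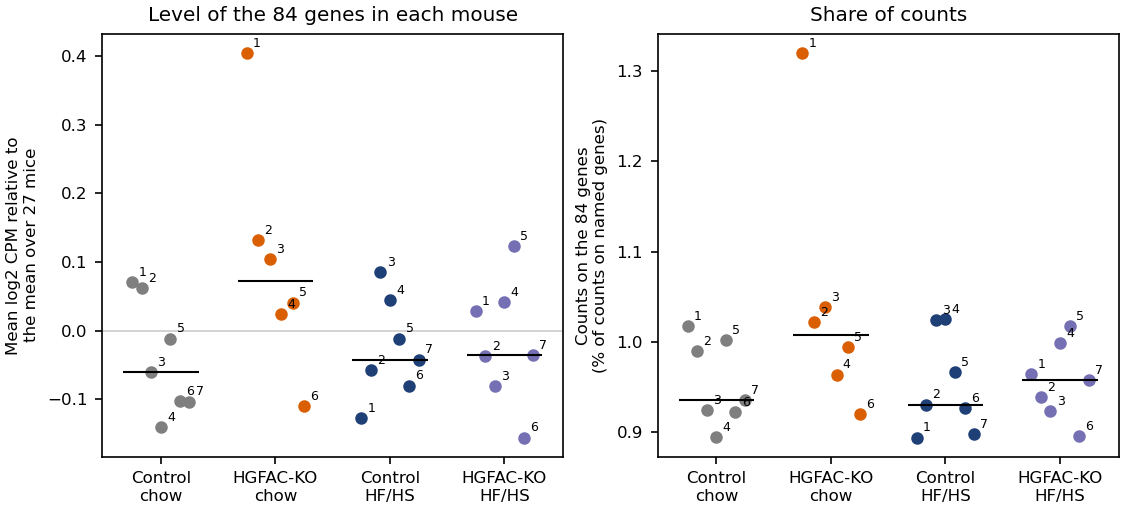
Level of the ribosomal protein genes in each mouse, as the mean over 84 genes of log2 CPM relative to the mean of 27 mice (left) and as the percentage of the counts on named genes (right). Points are mice with their replicate number, lines are group medians, and KO chow replicate 1 is highest on both scales (0.40 and 1.32%).

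The genes moved together between mice. The SD of log2 CPM within groups had a median of 0.134 over the 84 genes, against 0.183 over all 13932 genes expressed, and 7 members had a wider spread than that median. Once the level of the family in each mouse, to which each gene itself contributes, had been subtracted, the median SD of the members was 0.0626. *Rpl4* was the steadiest member (SD 0.07) and *Rps4l* the most variable (0.43). *Rps4l*, which lies at chr6:148354656-148355598 in GRCm38 and is annotated as a transcribed processed pseudogene, had between 9.75% and 29.1% of the CPM of *Rps4x* in single mice.

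KO HF/HS replicate 6 departed from this common movement. Relative to the family level in that mouse (-0.16), 11 members were lower by more than 0.3 and 5 were higher by more than 0.3 on the log2 scale, while no other mouse had more than 2 such members. The SD over the members was 0.24 in this mouse and at most 0.11 in any other. *Rplp1* had 143 CPM there and 214.5 to 294.8 CPM in the other 6 HGFAC-KO mice on HF/HS. *Rpl21*, a protein of the large subunit, had 15.5 CPM against 28.2 to 32.5 CPM, and *Rps29*, a small zinc-binding protein, 59.9 against 92.7 to 124.5 CPM. Among the others that were low were *Rps27rt*, *Rpl41*, *Rps4x*, *Rps15a* and *Rpl29*. Those that stood high were *Rps12* (80.1 CPM, the others 56.0 to 73.8), *Rpl10* (194.6 against 156.3 to 167 CPM), *Rpl35a*, *Rpl39* and *Rpl17*. The annotation names at least 1 pseudogene after 9 of the 11 low members, after 5 of the 5 high members and after 47 of the other 68. The median number of such pseudogenes was 1.0 for the low members, 6.0 for the high members and 1.5 for the others. In this mouse 827 of 13932 genes (5.94%) had their lowest level of all mice and 26 of the 84 members did. Whether this library was aligned or counted differently from the others is not given in the sources used here and was not tested. The comparisons on HF/HS are therefore also given without this mouse.

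**Figure D3:**
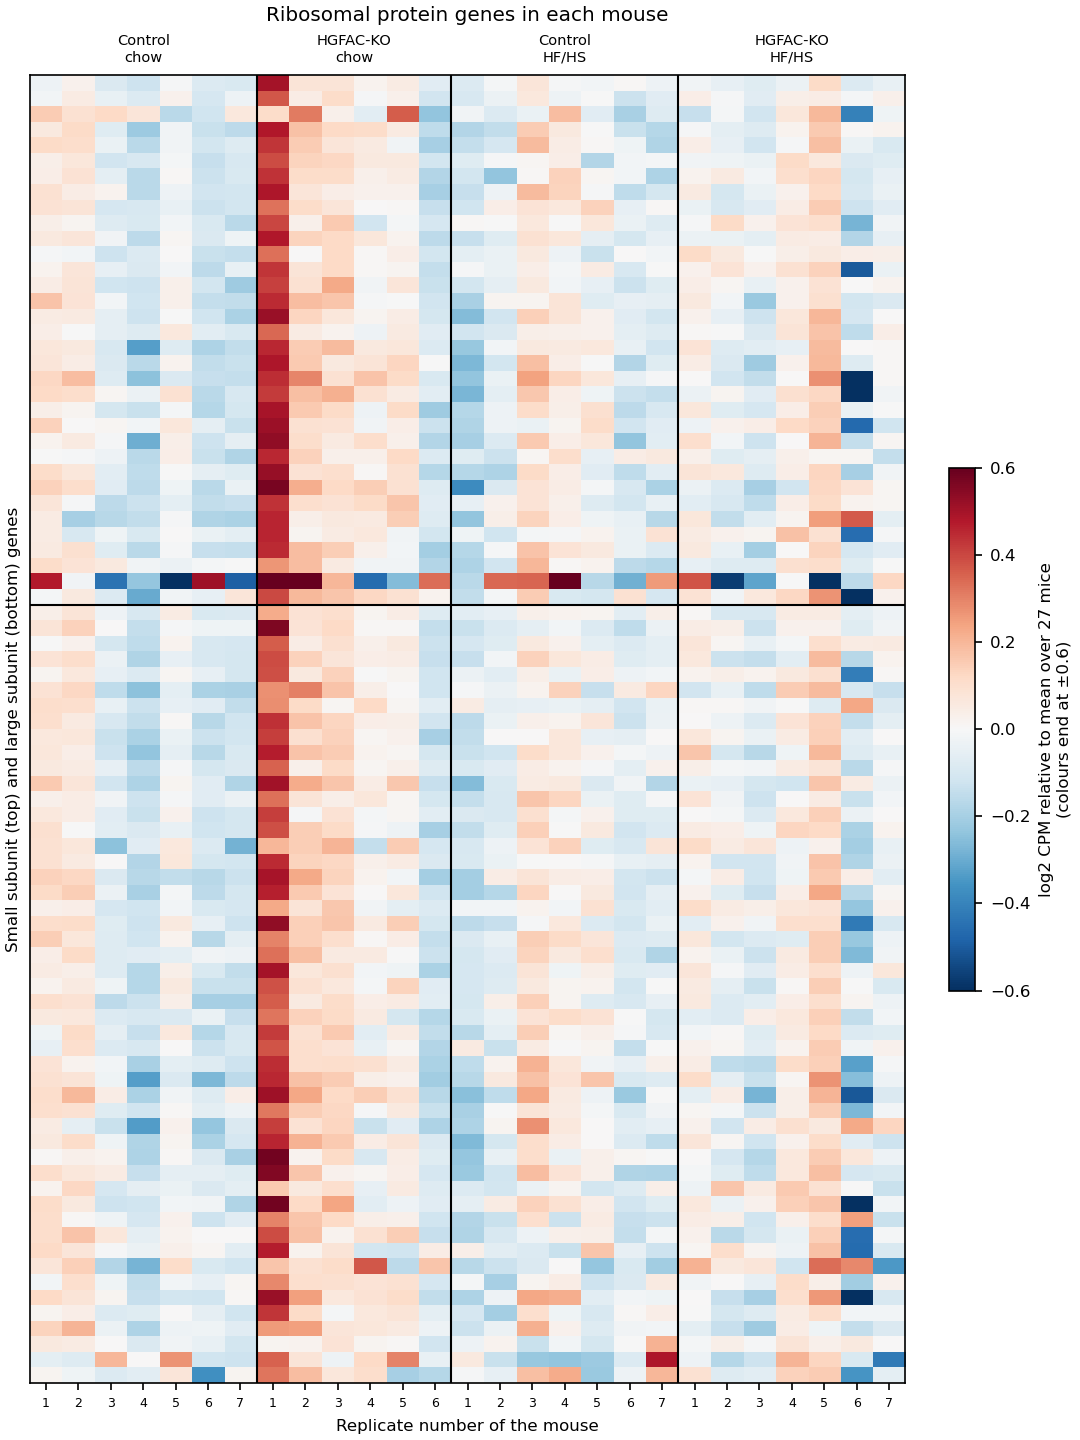
log2 CPM of each of the 84 ribosomal protein genes (rows, small subunit above the line and large subunit below) in each of 27 mice (columns, by group), relative to the mean of the gene over all mice. Colours end at ±0.6, KO chow replicate 1 is high across 84 of 84 rows, and KO HF/HS replicate 6 is low in some rows and high in others.

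On chow, each of the 84 genes had a higher fitted level in HGFAC-KO mice than in controls, and none passed the test. The log2 fold changes ran from 0.03 to 0.31 with a median of 0.15, against 0.00 over all 13571 genes tested, of which 51.2% were higher. By the quasi-likelihood test of edgeR, adjusted over all genes after Benjamini and Hochberg (adjusted p under 0.05), 0 of 84 members were called, with adjusted p from 0.801 to 0.927, where 0.00737% of all genes were called (1 gene, *Hgfac*). DESeq2 and limma voom also called 0 members. At an unadjusted p under 0.05, 26 of the 84 were higher and 0 lower (28 by DESeq2 and 22 by limma voom), where 3.39% of all genes were higher at that level. The count moved with the scaling, to 14 with the library total alone, to 10 with a total that includes rows without a gene name and no factors (added after seeing the data) and to 37 with the share of such rows as a covariate. The 26 comprised 15 of 34 genes of the small subunit and 11 of 50 of the large subunit, and the median was 0.16 in the small and 0.15 in the large subunit. For 0 of 84 members did the HGFAC-KO mice and the controls not overlap, against 0.125% of all genes. Without KO chow replicate 1 the median fell to 0.08, with 82 of 84 genes higher and 10 at an unadjusted p under 0.05. Without KO chow replicate 6 it was 0.19, with 68 genes at that level. Leaving out 1 control gave between 11 such genes (without control chow replicate 4 or 6) and 37 (without replicate 1), with 12 without replicate 7 and 16 without replicate 3, and 17 without KO chow replicate 2. Without both KO chow replicates 1 and 6, a choice made after seeing the data, the median was 0.11, with 83 genes higher and 31 at that level, and none of these fits called a member.

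The gene with the smallest p was *Rps27a* (chr11:29545846-29548109), which encodes a fusion of ubiquitin and a small subunit protein. Its level in controls on chow ran from 57.2 to 67.1 CPM with a median of 58.3, and in HGFAC-KO mice from 60.9 to 86.2 CPM with a median of 68.7. Of the 6 HGFAC-KO mice 5 lay above every control. The log2 fold change was 0.23 (SE 0.07, unadjusted p = 0.00486 and adjusted p = 0.801 by edgeR's quasi-likelihood test, two-sided exact permutation test p = 0.00583). *Rps12*, another small subunit protein, followed with 54.0 to 64.2 CPM (median 55.2) in controls against 58.8 to 85.2 CPM (median 64.5) in the knockouts (log2 fold change 0.25, SE 0.08, exact p = 0.00699 by permutation). The annotation names 24 pseudogenes after *Rps12*, and reads shared with such copies may enter its level. *Rps27*, a zinc finger protein of the small subunit, ran from 85.5 to 112.7 CPM (median 100.7) and from 101.6 to 147.4 CPM (median 116.2). Its log2 fold change was 0.25 (SE 0.08, exact p = 0.0140 by permutation). In each of these 3 genes the highest value was that of KO chow replicate 1, and 4 or 5 of the 6 HGFAC-KO mice were above all controls.

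Genes picked for their role gave like values on chow, except *Rps27l*, which was at 0.03 (SE 0.06). *Rplp0*, the anchor of the stalk and a common reference gene in qPCR, was 336.6 ± 17.1 CPM (SD, n = 7) in controls against 364.6 ± 31.1 CPM (n = 6), a log2 fold change of 0.12 (SE 0.06). The stalk proteins *Rplp1* and *Rplp2* had log2 fold changes of 0.18 (SE 0.09) and 0.15 (SE 0.07). *Rps6*, the protein whose phosphorylation reports S6 kinase activity, was 124.8 ± 5.58 CPM in controls against 137.7 ± 14.9 CPM (log2 fold change 0.15, SE 0.06, exact permutation p = 0.0256, n = 7 and 6). *Rpsa*, also known as the laminin receptor, was at 0.17 (SE 0.07), and *Rps19*, the gene most often mutated in Diamond-Blackfan anemia, at 0.18 (SE 0.09). *Rpl5* and *Rpl11*, which bind MDM2 when free of the ribosome, were both at 0.11 (SE 0.06 and 0.07). *Rpl3*, which lies near the peptidyl transferase center, was at 0.15 (SE 0.08), *Rpl10*, which joins the subunit late in its assembly, at 0.12 (SE 0.06), and *Rpl13a*, known for a role in interferon-dependent translational silencing, at 0.12 (SE 0.09). *Rpl39* and *Rpl41*, among the smallest proteins of the ribosome, were at 0.12 (SE 0.06) and 0.16 (SE 0.09). Each of these genes had an adjusted p of at least 0.801 by edgeR's quasi-likelihood test.

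On HF/HS, members were found on both sides of 0 between genotypes, and none passed the test. Of the 84 genes 55 were higher in HGFAC-KO mice and 29 lower, with log2 fold changes from -0.33 to 0.22 and a median of 0.02 (all 13544 genes tested, 0.00). Of the 84, 0 were called by edgeR's quasi-likelihood test, where 0.0148% of all genes were, and 0 by DESeq2 or limma voom. At an unadjusted p under 0.05 there was 1 member, where 9.64% of all genes had such a p (DESeq2 gave 2 members and limma voom 0). It was *Rpl17*, a large subunit protein near the exit tunnel whose level is uncertain, with 4.69 to 5.52 CPM (median 5.04) in controls against 4.34 to 6.97 CPM (median 5.79). Of the 7 HGFAC-KO mice 5 lay above all controls and 1 below them, and the log2 fold change was 0.22 (SE 0.10, adjusted p = 0.493 by edgeR's quasi-likelihood test, two-sided exact permutation test p = 0.0583). Without KO HF/HS replicate 6, where *Rpl17* was among the high members (6.74 CPM), it was 0.18, and 0 members had an unadjusted p under 0.05. *Rps6* had the next smallest p, with 119.3 to 136.6 CPM (median 128.3) in controls and 130.9 to 141.8 CPM (median 134.6) in the knockouts. Its log2 fold change was 0.08 (SE 0.04), with an adjusted p of 0.537 by edgeR's quasi-likelihood test and a p of 0.00874 by the exact permutation test, and 2 of the 7 knockouts lay above all controls. *Rpl15*, a large subunit protein, had a log2 fold change of 0.10 (SE 0.05, exact permutation p = 0.0670). The split moved with the scaling, from 41 members higher with the library total including rows without a gene name and no factors (added after seeing the data) to 70 with the share of such rows as a covariate. Leaving out KO HF/HS replicate 6 gave 68 of 84 members higher (median 0.04), and leaving out KO HF/HS replicate 5 gave 37 (median -0.01). Members at an unadjusted p under 0.05 numbered 0 to 4 when 1 mouse was left out, with 4 without control HF/HS replicate 3. Under other settings they numbered 0 to 3, with 3 under upper-quartile normalization. *Rplp1* stood at 231.0 ± 47.4 CPM (SD, n = 7) in HGFAC-KO mice against 250.6 ± 27.1 CPM (n = 7), the wider spread coming with the 143 CPM of replicate 6.

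**Figure D4:**
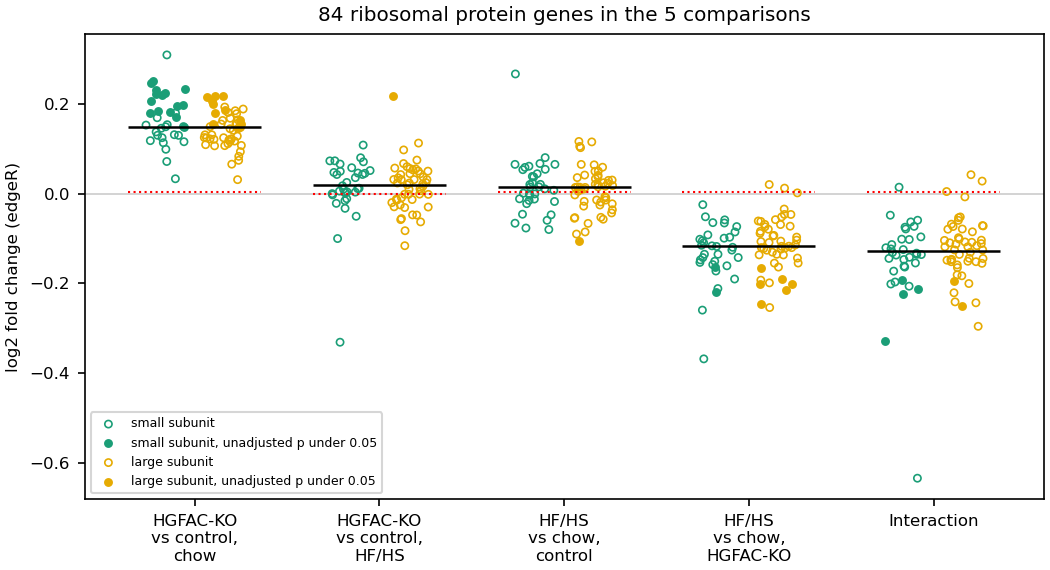
log2 fold changes (edgeR) of the 84 ribosomal protein genes in the 5 comparisons, small subunit to the left and large subunit to the right within each, filled where the unadjusted p was under 0.05. Black lines are the medians of the members (0.15, 0.02, 0.01, -0.12 and -0.13 from left to right), and dotted red lines the medians of all genes tested.

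In controls, no member passed the test between HF/HS and chow, while 10.5% of all genes tested (1424 of 13525) were called by edgeR's quasi-likelihood test. None of the 84 members was called by edgeR, DESeq2 or limma voom. The log2 fold changes ran from -0.10 to 0.27 with a median of 0.01 (all genes 0.00), and 50 members were higher and 34 lower. The split turned over with the share of rows without a gene name as a covariate (27 higher, median -0.02), without control HF/HS replicate 3 (37 higher, median -0.01) and without control chow replicate 4 (40 higher, 44 lower). At an unadjusted p under 0.05 there was 1 member (0 by DESeq2 and 1 by limma voom), against 25.4% of all genes. That gene was *Rpl29*, a large subunit protein rich in basic residues, with 25.9 to 30.3 CPM (median 27.4) on chow and 23.7 to 27.6 CPM (median 26.3) on HF/HS. Its log2 fold change was -0.10 (SE 0.05, adjusted p = 0.196 by edgeR's quasi-likelihood test, p = 0.0344 by the exact permutation test), and 3 of 7 mice on HF/HS lay below all mice on chow. *Rpl13a* (log2 fold change -0.09, SE 0.05) and *Rpl27a* (0.11, SE 0.06) came next, with exact permutation p of 0.0554 and 0.117. Members at an unadjusted p under 0.05 numbered 4 with the share of rows without a gene name as a covariate. They numbered 2 with the library total alone and 2 without control chow replicate 4. The SE of a member had a median of 0.06 in this comparison. The highest fold change, 0.27, was that of *Rps4l*, the member with the widest spread.

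In HGFAC-KO mice, 81 of 84 members were lower on HF/HS than on chow, with log2 fold changes from -0.37 to 0.02 and a median of -0.12 (all 13613 genes tested, 0.00). By edgeR's quasi-likelihood test 0 members were called, where 5.89% of all genes were. At an unadjusted p under 0.05, 8 members were lower and 0 higher, against 10.9% of all genes that were lower at that level, so the share of members, 8 of 84, was near that of all genes. DESeq2 gave 9 and limma voom 6, all mice in 1 fit 18, the covariate for rows without a gene name 19, and the library total including such rows with no factors (added after seeing the data) 4. Leaving out 1 mouse gave between 1 (without KO chow replicate 1 or KO HF/HS replicate 3) and 28 (without KO chow replicate 6), with 19 without KO HF/HS replicate 5 and 3 to 5 without KO chow replicate 2 or 5 or KO HF/HS replicate 2, 6 or 7. *Rpl36al*, a paralog of *Rpl36a* at chr12:69182731-69184083, had the smallest p. Its level ran from 91.6 to 111.8 CPM (median 98.2) on chow and from 80.8 to 96.5 CPM (median 88.3) on HF/HS, and 5 of 7 mice on HF/HS lay below all 6 on chow. The log2 fold change was -0.20 (SE 0.06, adjusted p = 0.0585 by edgeR's quasi-likelihood test, two-sided exact permutation test p = 0.00350). Over the alternatives the lowest adjusted p of any member ran from 0.0165 with DESeq2 to 0.137 without KO chow replicate 2. That of *Rpl36al* was under 0.05 with DESeq2 (0.0165), with the share of counts on rows without a gene name as a covariate (0.0193), with all 27 mice in 1 fit (0.0430), without KO chow replicate 6 (0.0398) and without KO HF/HS replicate 4 (0.0468). In the same order, these fits called 1405 of 13613, 978 of 13613, 1163 of 13932, 783 of 13669 and 696 of 13541 genes, and 1 of 84 members each. *Rps28*, a small subunit protein, went from 60.5 to 94.5 CPM (median 70.0) on chow to 55.5 to 69.5 CPM (median 62.1) on HF/HS (log2 fold change -0.22, SE 0.09, exact permutation p = 0.0303). *Rps27a* was at -0.16 (SE 0.07, exact permutation p = 0.0379).

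The difference between diets in HGFAC-KO mice varied with the chow mice that stood at the ends of their group. Without KO chow replicate 1, 71 of 84 members were lower, the median was -0.05 and 1 had an unadjusted p under 0.05. Without KO chow replicate 6 the median was -0.16, with 84 of 84 lower, 28 at an unadjusted p under 0.05 and 1 called, where 783 of 13669 genes were. Without KO HF/HS replicate 6 it was -0.10. In these HGFAC-KO mice marker lists of other cells also differed between the diets: 22 of 24 leukocyte and Kupffer cell markers were higher on HF/HS (median log2 fold change 0.47). Of these markers 9 were called by edgeR, where 5.89% of all genes were. Their summed levels were 219.5 to 339.1 CPM on chow and 319.5 to 488 CPM on HF/HS. None of the 25 markers in the table was at 0 in most libraries. Sinusoidal endothelial markers were higher for 9 of 10 (median 0.28, 1 called), and stellate cell markers for 9 of 10 (median 0.33, 0 called). Of the cholangiocyte markers 0 of 5 were higher (median -0.28), of the erythroid markers 0 of 4 (median -0.51), of the proliferation markers 8 of 12 (median 0.26) and of the hepatocyte markers 6 of 11 (median 0.00), with 0 called in the first 3 lists and 1 lower in the last. In controls, where the members had a median of 0.01, the leukocyte, endothelial and stellate lists were also higher on HF/HS, with 18 of 24 (median 0.17, 2 called), 9 of 10 (median 0.23, 0 called) and 9 of 10 (median 0.15, 1 called higher and 1 lower). There, where 10.5% of all genes were called, the cholangiocyte list had a median of -0.19 (0 called) and the erythroid list of -0.71 (1 of 4 called lower). The proliferation list had a median of -0.36, with 1 of 12 called higher and 2 lower. The part of these cells in the levels of the ribosomal protein genes was not tested.

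The test of the difference between diets in the genotype effect covered all 27 mice and 13932 genes. No member was called by edgeR's quasi-likelihood test, DESeq2 or limma voom, and 0.0% of all genes were. For 80 of 84 members the estimate was negative, that is, the genotype difference was smaller or more negative on HF/HS than on chow, with a median of -0.13 (all genes 0.00). At an unadjusted p under 0.05, 6 members were lower and 0 higher (8 by DESeq2 and 7 by limma voom), against 1.89% of all genes that were lower at that level. This count depended on single mice. Of the HGFAC-KO mice on chow, leaving out replicate 1 gave 2 members, replicate 2 gave 3 and replicate 6 gave 21. It rose to 12 and 11 when control chow replicate 1 or 2 was left out, to 14 for control HF/HS replicate 1, and to 15 for KO HF/HS replicate 5. The smallest p belonged to *Rps27a* (-0.22, SE 0.08), *Rps13* (-0.21, SE 0.09) and *Rpl27a* (-0.25, SE 0.11), each with an adjusted p of 0.984. *Rps13* had 75.0 to 87.4 CPM (median 83.2) in controls and 80.4 to 116.2 CPM (median 89.7) in HGFAC-KO mice on chow, and 77.7 to 91.6 CPM (median 85.8) against 77.1 to 87.0 CPM (median 85.7) on HF/HS. *Rpl27a* had medians of 155.8 and 186.2 CPM on chow and of 175.5 and 161.8 CPM on HF/HS, in the same order. Without KO chow replicate 1 the median over the members was -0.06, with 72 of 84 negative, and without KO HF/HS replicate 6 it was -0.11, with 80 negative and 5 at an unadjusted p under 0.05. This test shares its mice with the 4 comparisons above.

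**Figure D5:**
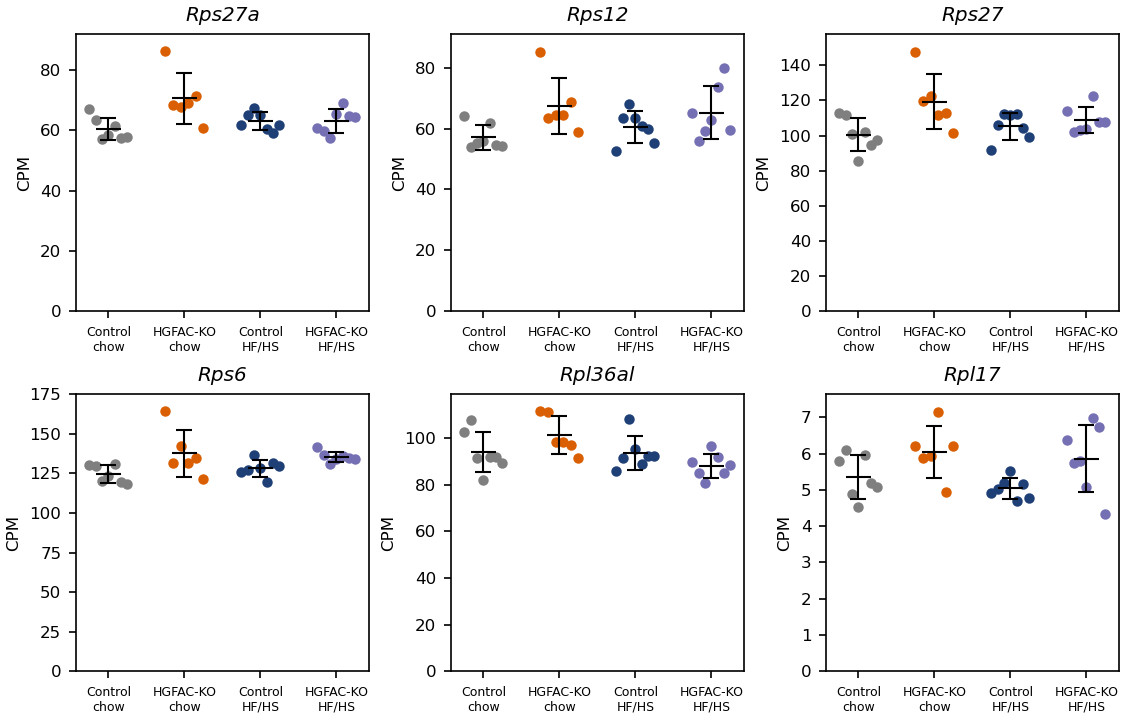
CPM of *Rps27a*, *Rps12*, *Rps27*, *Rps6*, *Rpl36al* and *Rpl17* in each mouse of the 4 groups (points), with the mean and SD (black). Axes begin at 0, the groups overlap in each gene, and the highest *Rps27a*, *Rps12*, *Rps27* and *Rps6* values (86.2, 85.2, 147.4 and 164.7 CPM) are those of KO chow replicate 1.

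Paralogs were set beside their partners as a percentage of the partner's CPM in the same mouse, without correction for length. *Rps27l*, a paralog of *Rps27* that is a known p53 target, had a median of 85.9% of the CPM of *Rps27* in controls on chow (79.1% to 96.4%) and of 72.9% in HGFAC-KO mice on chow (68.2% to 79.5%). The 2 ranges met at their edges. The log2 fold change of *Rps27l* on chow was 0.03 (SE 0.06), against 0.25 for *Rps27*. On HF/HS the ranges overlapped widely (71.9% to 85.7% for the controls, 71.0% to 86.1% for the knockouts). *Rpl22l1*, the paralog of *Rpl22*, had medians between 20.7% and 22.9% of *Rpl22* in the 4 groups, with single mice from 16.7% to 33.3%. *Rpl36al* had medians between 175% and 196% of *Rpl36a*. *Rpl36a* itself had a log2 fold change of 0.20 (SE 0.08) between genotypes on chow and of -0.17 (SE 0.08) between diets in HGFAC-KO mice. *Rpl32l*, annotated as a processed pseudogene, had medians between 1.73% and 2.00% of *Rpl32*.

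*Fau* and *Rack1* were tested in the same fits. *Fau*, a fusion of a ubiquitin-like domain with a small subunit protein, had log2 fold changes between genotypes of 0.19 (SE 0.08) on chow and 0.02 (SE 0.06) on HF/HS. *Rack1*, a scaffold on the small subunit, was at 0.14 (SE 0.07) and 0.05 (SE 0.05). Neither was called by edgeR's quasi-likelihood test in any of the 5 comparisons.

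Genes of the same biology were counted from lists written for this work. Of 20 translation factors and other TOP mRNAs, 16 were higher in HGFAC-KO mice on chow (median log2 fold change 0.07, 0 called by edgeR), led by *Naca* (0.12, SE 0.05) and *Eef1b2* (0.16, SE 0.08), which encode a subunit of the nascent chain complex and a nucleotide exchange factor of elongation. Between genotypes on HF/HS 7 of 20 were higher (median -0.02, 0 called). In controls 18 of 20 were higher on HF/HS (median 0.04), and 1 of the 20 was called, where 10.5% of all genes were. It was *Tpt1*, a TOP mRNA, from 466.4 ± 15.7 to 521.9 ± 26.4 CPM (SD, n = 7 each, adjusted p = 0.0329 by edgeR's quasi-likelihood test). In HGFAC-KO mice 8 of the 20 were higher on HF/HS (median -0.03, 0 called). Of 56 genes of ribosome biogenesis, 49 were higher in HGFAC-KO mice on chow (median 0.08, 0 called, 4 higher at an unadjusted p under 0.05 where 3.39% of all genes were), led by *Gar1* (0.27, SE 0.08), a protein of the pseudouridylation complex, and *Nip7* (0.22, SE 0.08). On HF/HS 42 of 56 were higher (median 0.09, 0 called, 11 higher at an unadjusted p under 0.05, where 9.64% of all genes had such a p in either direction), led by *Rrp12* (0.31, SE 0.09) and by *Ubtf* (0.18, SE 0.06), a transcription factor of ribosomal DNA. Between diets in controls, *Ubtf* was lower on HF/HS (85.2 ± 5.02 to 73.9 ± 5.23 CPM, SD, n = 7 each, adjusted p = 0.0175 by edgeR's quasi-likelihood test) and *Rcl1*, a factor of 18S rRNA processing, was higher (log2 fold change 0.30, SE 0.07, adjusted p = 0.00935), with 2 of the 56 called higher and 1 lower, while 10.5% of all genes were called in this comparison. In HGFAC-KO mice 27 of the 56 were higher on HF/HS, and 0 were called.

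Of 23 genes of mTORC1 and its control of TOP mRNAs, 12 were higher in HGFAC-KO mice on chow (median 0.00) and 9 on HF/HS (median -0.02), with 0 called on either diet. *Ddit4*, the inhibitor of mTORC1 known as REDD1, was at 0.38 (SE 0.12) on chow, *Mlst8*, a subunit of mTORC1, at 0.16 (SE 0.05) on chow, and *Akt1s1*, which encodes the mTORC1 inhibitor PRAS40, at -0.15 (SE 0.05) on HF/HS. *Ddit4* was the only gene of the 23 called for diet, where 10.5% of all genes were called in controls and 5.89% in HGFAC-KO mice. It fell on HF/HS in controls from 15.2 ± 2.56 to 6.98 ± 2.57 CPM (SD, n = 7 each, log2 fold change -1.13, SE 0.20, adjusted p = 0.00191 by edgeR's quasi-likelihood test) and in HGFAC-KO mice from 19.7 ± 3.04 (n = 6) to 9.19 ± 1.79 CPM (n = 7, log2 fold change -1.10, SE 0.13, adjusted p = 1.94e-04). Since ribosomal protein synthesis in liver is known to follow the day, 17 genes of the core clock and its output were counted too. On chow 8 of the 17 were higher in HGFAC-KO mice and on HF/HS 4, and 0 were called for genotype. On HF/HS 3 were higher and 4 lower at an unadjusted p under 0.05, where 9.64% of all genes had such a p, and on chow 1 was higher. The smallest p on HF/HS was that of *Arntl*, which encodes the clock activator BMAL1 (0.53, SE 0.13, adjusted p = 0.331 by edgeR's quasi-likelihood test). In HGFAC-KO mice 10 of 17 were higher on HF/HS and 0 were called. In controls 12 of 17 were higher on HF/HS, and 2 of the 17 were called, a share near the 10.5% of all genes called there. They were the clock repressor *Nr1d1* (0.77, SE 0.20, adjusted p = 0.0272 by edgeR's quasi-likelihood test) and the clock output gene *Dbp* (1.47, SE 0.39, adjusted p = 0.0284).

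Ribosomal protein mRNAs are short, and 64 of the 82 members with a principal transcript have one under 1000 bases. Genes outside the family were therefore grouped by that length, a measure chosen after seeing the data. On chow, 646 of 891 genes under 1000 bases (72.5%) had the higher level in HGFAC-KO mice (median log2 fold change 0.06), as were 62.8% of 3105 genes of 1000 to 2000 bases (median 0.03) and 44.1% of 8955 genes of 2000 bases or more (median -0.01). Between diets in HGFAC-KO mice, 28.7% of 903 genes under 1000 bases were higher on HF/HS (median -0.10), 36.9% of those of 1000 to 2000 bases (median -0.05) and 58.5% of the longest (median 0.03). For genotype on HF/HS the shares higher were 38.6%, 44.8% and 52.1%, and for diet in controls 47.5%, 45.8% and 53.1%, from short to long. With the length of all exons together, 71.3% of 362 genes under 1000 bases were higher in HGFAC-KO mice on chow (median 0.07), and the medians were -0.03 for genotype on HF/HS, 0.00 for diet in controls (182 of 361 higher), -0.11 for diet in HGFAC-KO mice and -0.08 for the difference between diets. The medians of the members, 0.15 on chow and -0.12 between diets in HGFAC-KO mice, lay on the same side of 0 as those of the genes under 1000 bases. In the other 2 comparisons they lay on opposite sides, with 0.02 for the members and -0.04 for the short genes for genotype on HF/HS, and with 0.01 and -0.01 for diet in controls. For the difference between diets in the genotype effect they lay on the same side, with -0.13 for the members and -0.09 for the short genes (28.4% of 924 positive). The part of transcript length in the levels of the members was not tested.

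Among the other marker lists, 3 of 23 leukocyte and Kupffer cell markers and 1 of 10 sinusoidal endothelial markers were higher in HGFAC-KO mice on chow (medians -0.21 and -0.21, 0 called by edgeR in each list). The 11 hepatocyte markers had a median of 0.06 (7 higher, 0 called), led by *Apoa1* (0.36, SE 0.06) and *Alb* (0.21, SE 0.06), the 5 cholangiocyte markers of 0.17, the 12 proliferation markers of -0.31, the 10 stellate cell markers of -0.04 and the 4 erythroid markers of -0.01. KO chow replicate 1, the mouse with the highest ribosomal protein level, was above the other 5 HGFAC-KO mice on chow in the summed markers of sinusoidal endothelium (319.9 CPM, the others 193.9 to 299.8), stellate cells (334.3 CPM, the others 168.3 to 327.0) and erythroid cells (286.4 CPM, the others 170.8 to 284.3). It lay among the other 5 for leukocytes and Kupffer cells (254.2 CPM, the others 219.5 to 339.1), for proliferation (16.5 CPM, 13.6 to 20.4), for cholangiocytes and for hepatocytes. In none of these 7 lists was it the highest or the lowest of all 27 mice. Its clock genes summed to 479.4 CPM, below the 509.8 to 766.1 CPM of the other 26 mice. In KO chow replicate 6 the cholangiocyte markers summed to 86.6 CPM, above the 35.4 to 70.4 CPM of the other 26, and the hepatocyte markers to 100300 CPM, below the 105000 to 114900 CPM of the other 5 mice of its group. Its sums for the other 5 marker lists lay among those of its group. The part of these levels in those of the ribosomal protein genes was not tested.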

How the data were processed

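Livers were snap-frozen, and libraries were made with a stranded mRNA kit and sequenced paired-end. The authors aligned reads to mm10 with HISAT2 and counted them per gene with featureCounts 1.6.3, and deposited raw counts. Rows without a gene name, 4.13% to 12.1% of counts per library, entered neither the library sizes nor the tests, and rows that share a symbol were summed. Each mouse was 1 sample.

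Counts were tested with edgeR 4.0.16 (quasi-likelihood, TMM, filterByExpr with a minimum count of 10, R 4.3.3) on the mice of each comparison, with Benjamini-Hochberg adjustment over all genes tested. The SE given was derived from that test, as the absolute log2 fold change divided by the square root of the F statistic. DESeq2 1.42.0 and limma 3.58.1 (voom) were alternatives, with other filters, scalings and left-out mice. Levels are CPM with TMM factors over 27 mice. Exact permutation tests were two-sided over all 1716 or 3432 splits of log2(CPM + 2), with a smallest possible p of 0.000583 in either case. The scripts were tested on simulated data. Exon lengths and gene coordinates are those of GENCODE on GRCm38, and start windows those of RefSeq on GRCm38.p6.

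Members named in a comparison were the 3 with the smallest p there, the 3 highest and the 3 lowest per kb, and a list chosen for role. Others, including those of KO HF/HS replicate 6 and the limit of 0.3 used there, were chosen after their values were seen, as were the start windows printed. From the other lists the genes with the smallest p were named. The members and lists were chosen with earlier results of these data known. Results of some genes are not reported here.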

Additional observations from a re-analysis of the deposited data

Results flagged for a closer look

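In groups of 6 or 7 mice, 136 sets of values were examined for 1 mouse far from the others by Dixon's criterion. They cover 31 named genes, the mean level of the family and the shares of counts. The mean level of the family stood apart in no group, not even for KO chow replicate 1 (0.40). In all, 13 values did, where chance alone gives about 6.8 at 1 in 20. The genes move together between mice, so these are not separate events.

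KO chow replicate 1 accounted for 6 of the 13. The members took 1.32% of its counts on named genes, against 0.919% to 1.04% in the other 5 HGFAC-KO mice on chow. *Rpl13a* had 484.0 CPM there (the others 297.7 to 356.7), *Rplp2* 204.4 CPM (145.7 to 164.6), *Rps13* 116.2 CPM (80.4 to 93.5), *Rps15a* 71.1 CPM (48.0 to 54.0) and *Rps19* 125.7 CPM (76.8 to 93.5). KO chow replicate 6 had 12.1% of counts on rows without a gene name, against 4.84% to 7.15% in the others of its group.

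KO HF/HS replicate 6 accounted for 3, in opposite directions. *Rpl10* was high at 194.6 CPM (the other 6 mice 156.3 to 167.0), while *Rpl5* was low at 80.1 CPM (96.0 to 101.7) and *Rps15a* at 37.6 CPM (51.5 to 58.4).

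The other 3 came from 3 control mice. *Rpl22l1* had 26.5 CPM in control HF/HS replicate 7 (at most 19.7 in the others), *Rpl36al* 108.4 CPM in control HF/HS replicate 3 (85.7 to 95.2), and *Rpl32l* 2.28 CPM in control chow replicate 6 (2.79 to 3.11).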

How the results depend on the processing

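The number of members called changed in 1 comparison, that between diets in HGFAC-KO mice, where it was 0 by edgeR and 1 (*Rpl36al*) with DESeq2, with the share of counts on rows without a gene name as a covariate, with all mice in 1 fit, with DESeq2 adjusted over all genes (added after seeing the data), and when 1 mouse was left out (0 to 1). The fits with 1 member called had between 696 and 1405 genes called in all. For the 3 members with the smallest p in each comparison, 453 of 459 recomputed fold changes kept their side of the threshold, 6 passed it (all *Rpl36al*) and 0 changed sign. These members were picked for their small p, and the other named members are not in this tally. Leaving out 1 mouse, the median over the members ran from 0.08 to 0.19 for genotype on chow, from -0.01 to 0.04 for genotype on HF/HS, from -0.01 to 0.03 for diet in controls, from -0.16 to -0.05 for diet in HGFAC-KO mice and from -0.17 to -0.06 for the difference between diets. Under the other settings these ranges were 0.11 to 0.16, 0.00 to 0.04, -0.02 to 0.02, -0.13 to -0.08 and -0.14 to -0.09. Whether same-numbered mice share more than a number is not given in the sources used here. The correlations of their deviations ran from -0.25 to 0.37 over the 4 comparisons, and 1 of 6, 3 of 7, 0 of 7 and 4 of 6 pairs were over 0.1. With the replicate number as a block the medians were 0.13, 0.02, 0.01, -0.11 and -0.12, with 30, 0, 0, 10 and 7 members at an unadjusted p under 0.05 and 0 called, and all genes called for diet in controls went from 1424 to 774. Over all genes, DESeq2 called 11 against 1 of edgeR for genotype on chow, 55 against 2 on HF/HS and 1405 against 802 for diet in HGFAC-KO mice. Adjusted over all genes, DESeq2 called 10, 55 and 1401. Without KO HF/HS replicate 5 there were 11 genes called for genotype on HF/HS, without control HF/HS replicate 7 there were 5, and with all mice in 1 fit 1. Without KO chow replicate 2 there were 467 for diet in HGFAC-KO mice. The cause of these changes was not tested. Differences of the size seen, near 0.15 on the log2 scale, were about 2 times the median SE of a member on chow (0.08), which limits what groups of 6 and 7 mice can show for 1 gene.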
